A study of Mus musculus with 4 samples.

Results

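Guides against vomeronasal receptor genes were examined in a pooled CRISPR-Cas9 knockout screen for regulators of the endogenous retrovirus MERVL. The members are all genes of the authors' deposited table whose name begins with Vmn1r or Vmn2r followed by a digit. They number 303 of 22510 entries, with 185 Vmn1r and 118 Vmn2r genes, and carry 1573 guides. Some of these genes had unusually few guides. The Vmn1r genes had 5.19 guides on average (SD 1.40 over 185 genes) and the Vmn2r genes 5.19 (SD 1.37 over 118 genes), whereas all 20380 genes had 5.73 (SD 0.672). Only 1 to 3 guides were held by 26 Vmn1r genes (14.1%), by 13 of 118 Vmn2r genes and by 1.75% of all genes. Of these, 20 of the 26 Vmn1r genes and all 13 Vmn2r genes lay in 1 block per family on chromosome 7. No member passed a false discovery rate of 0.05 for a change in guide abundance. Of all 20380 genes, 0 passed for positive and 1 for negative change.

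Vomeronasal receptors are G-protein-coupled receptors of the vomeronasal organ, the sense organ by which mice detect pheromones and other social odours. Vmn1r proteins (V1R) respond mainly to small molecules such as sulphated steroids, couple to the G protein Gnai2, and are encoded in a single coding exon. Vmn2r proteins (V2R) respond mainly to peptides and proteins, couple to Gnao1, carry a long extracellular ligand-binding domain of the class C type, and are encoded in several exons. Both kinds signal through the cation channel Trpc2, and both families have grown by repeated local duplication, so that close copies lie side by side. Guides were counted in genomic DNA, which measures no expression, so the cell type could not be checked against its markers.

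The screen used the E14 line, mouse embryonic stem cells with the genotype MERVL-tdTomato, in which red fluorescence reports MERVL activity. All cells had been transduced for 24 h with the lentiviral library in 4 ug/mL polybrene, selected for 48 h in 2 ug/mL puromycin and, at day 5, either sorted for the reporter (MERVL-positive, 2 libraries) or taken as total cells (2 libraries). The titles call the libraries of a group sequencing repeats, and the table holds 1 comparison per gene with no value per library, so no gene has a spread between libraries and depth is unknown. The sources used here do not name the group taken as numerator, and a positive log2 fold change is read as more guides in MERVL-positive cells. That reading is likely but not settled, and rests on Ints7, named in the study's title, which the authors' deposited table put at rank 157 for positive and 18586 for negative change. The log2 fold change of Ints7 in the authors' deposited table was only 0.144, inside the quartiles of all genes (-0.33 and 0.26). By the labels' cell and guide numbers, 3.84 cells were sorted per library guide on average.

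The guide sequences were not analysed here, so the receptors are shown by the first 50 bases from their start codon, read from RefSeq (GRCm38.p6, which has the coordinates of mm10). The first set holds the 6 Vmn1r genes that had 1 guide and a RefSeq window opening with a start codon, followed by 4 Vmn1r genes with 6 guides. Sequences run 5′ to 3′ on the coding strand, and capitals mark bases that differ, position by position, from Vmn1r149.
Vmn1r149: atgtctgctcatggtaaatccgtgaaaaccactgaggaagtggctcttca
Vmn1r116: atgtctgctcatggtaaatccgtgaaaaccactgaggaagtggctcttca
Vmn1r94: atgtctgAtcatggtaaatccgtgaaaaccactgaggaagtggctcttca
Vmn1r122: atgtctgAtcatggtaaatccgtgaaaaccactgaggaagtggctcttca
Vmn1r135: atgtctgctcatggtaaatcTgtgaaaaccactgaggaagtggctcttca
Vmn1r129: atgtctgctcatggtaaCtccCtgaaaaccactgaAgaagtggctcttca
Vmn1r176: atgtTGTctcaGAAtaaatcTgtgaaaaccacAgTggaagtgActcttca
Vmn1r25: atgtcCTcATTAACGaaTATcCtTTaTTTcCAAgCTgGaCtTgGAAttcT
Vmn1r34: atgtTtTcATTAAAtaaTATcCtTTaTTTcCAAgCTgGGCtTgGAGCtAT
Vmn1r7: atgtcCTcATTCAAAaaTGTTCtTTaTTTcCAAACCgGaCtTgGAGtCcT
The 6 genes with 1 guide differed from Vmn1r149 at 0 to 3 of the 50 bases. Vmn1r176, with 6 guides and further along the same region of chromosome 7, differed at 10. Not shown are 3 genes with 6 guides that lie beside or among the 1-guide genes, namely Vmn1r91, Vmn1r113 and Vmn1r124. Their RefSeq windows, described below, are 98.3%, 96% and 98.7% identical to that of their nearest relative. The 3 genes with 6 guides on chromosome 6 differed at 30 to 33. Distance from Vmn1r149 is not likeness to a nearest relative, which was 70.3% to 97% for the windows of the 4 genes with 6 guides shown. On chromosome 7 the stretches shown lie at chr7:22438180-22438229 (minus strand) for Vmn1r149, chr7:20872256-20872305 (plus) for Vmn1r116, chr7:20168328-20168377 (minus) for Vmn1r94 and chr7:21134079-21134128 (minus) for Vmn1r122. Those of Vmn1r135, Vmn1r129 and Vmn1r176 lie at chr7:21832351-21832400 (plus), chr7:21361242-21361291 (minus) and chr7:23835677-23835726 (minus). Those of Vmn1r25, Vmn1r34 and Vmn1r7 lie at chr6:57979253-57979302, chr6:66637703-66637752 and chr6:57025224-57025273, all on the minus strand.

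The second set shows the Vmn2r genes with 1 or 2 guides whose window opens with a start codon, followed by 3 with 6 guides, and capitals mark differences from Vmn2r49.
Vmn2r49: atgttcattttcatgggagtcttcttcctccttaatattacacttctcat
Vmn2r36: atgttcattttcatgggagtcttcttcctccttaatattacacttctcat
Vmn2r34: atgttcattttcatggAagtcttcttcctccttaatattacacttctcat
Vmn2r40: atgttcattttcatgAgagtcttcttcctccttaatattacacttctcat
Vmn2r33: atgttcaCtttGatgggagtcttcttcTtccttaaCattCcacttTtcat
Vmn2r39: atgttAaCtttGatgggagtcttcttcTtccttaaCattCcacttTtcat
Vmn2r111: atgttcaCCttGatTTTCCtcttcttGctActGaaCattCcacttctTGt
Vmn2r59: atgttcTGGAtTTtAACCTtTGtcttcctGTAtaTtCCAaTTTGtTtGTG
Vmn2r1: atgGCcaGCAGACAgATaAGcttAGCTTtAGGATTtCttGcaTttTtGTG
The genes with 1 or 2 guides differed from Vmn2r49 at 0 to 7 of the 50 bases, and Vmn2r111, Vmn2r59 and Vmn2r1 at 15, 28 and 31. The windows of these 3 are 98.3%, 86.7% and 52% identical to that of their nearest relative, so distance from Vmn2r49 is not that likeness. Not shown is Vmn2r51, which has 6 guides in the same region of chromosome 7 and a window 94% identical to that of its nearest relative. Also not shown are Vmn2r37 and Vmn2r42, with 1 guide each, whose windows do not open with a start codon and are 84.7% identical to their nearest relative. The stretches of Vmn2r49, Vmn2r36 and Vmn2r34 lie on the minus strand at chr7:9992090-9992139, chr7:7902413-7902462 and chr7:7689349-7689398. Those of Vmn2r40, Vmn2r33 and Vmn2r39 lie on the same strand at chr7:8931353-8931402, chr7:7566737-7566786 and chr7:9030633-9030682. Vmn2r111 is shown from chr17:22573224-22573273 (minus), Vmn2r59 from chr7:42058932-42058981 (minus) and Vmn2r1 from chr3:64081642-64081691 (plus).

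The family with a single coding exon (Vmn1r) and the multi-exon family (Vmn2r) had nearly the same distribution of guides per gene. Of the Vmn1r genes, 117 had 6 guides, 37 had 5, 5 had 4, 9 had 3, 9 had 2 and 8 had 1. Of the Vmn2r genes, 75 had 6 guides, 19 had 5, 11 had 4, 3 had 3, 5 had 2 and 5 had 1. Fewer than 6 guides were held by 36.8% of Vmn1r, 36.4% of Vmn2r and 20.2% of all genes, and no gene had more than 6. Guide number here is the number the table gives for each gene, with 1 value and no spread over samples, so these shares carry no test. The entries analysed here hold 121918 guides, where the labels give 130209 for the library, so a low number may be that of the library or of the table, which cannot be told apart here.

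The families differ far more in the length of genome they cover than in guides. The median span from gene start to end in RefSeq was 927 bases for 185 Vmn1r genes, of which 144 spanned less than 1 kb, and 24737 bases for 117 Vmn2r genes, where the shortest spanned 8400. Span and guide number had a Spearman correlation of 0.0094 across Vmn1r and 0.034 across Vmn2r genes, given as descriptions across genes that share a library. The other chemoreceptor families with mostly 1 coding exon were close to the level of all genes, with 5.78 guides per gene over 1106 olfactory receptor genes, 5.80 over 15 trace amine receptor (Taar) genes and 5.83 over 35 bitter taste receptor (Tas2r) genes. The 19 class C receptor genes of other kinds, such as glutamate, calcium-sensing and sweet taste receptors, had 5.89. Only 3 olfactory receptor genes had 1 to 3 guides.

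Grouped with neighbours of their own family whose starts lay within 1 Mb, the Vmn1r genes formed 13 blocks and the Vmn2r genes 17. In each family a single block on chromosome 7 held most genes with few guides. The Vmn1r block from 20101158 to 24055691 on chromosome 7 had 42 genes with a mean of 3.83 guides. It held 16 of the 17 Vmn1r genes with 1 or 2 guides. The Vmn2r block from 7212996 to 10176286 on the same chromosome had 20 genes with a mean of 2.80 guides, and all 10 Vmn2r genes with 1 or 2 guides lay in it. Among the other blocks of 4 or more genes, the lowest mean was 5.38 for Vmn1r and 5.22 for Vmn2r. Without these 2 blocks, chosen after the values were seen, the family means were 5.59 for 143 Vmn1r and 5.68 for 98 Vmn2r genes. No Vmn2r gene outside its block had fewer than 4 guides. The 7 genes of other kinds inside the Vmn1r block had 4.29 guides on average, and 5 of them had fewer than 6. At the labels' numbers, a gene of the Vmn1r block would have 14.7 sorted cells on average and a gene of the Vmn2r block 10.8. This takes guides as equally common and their numbers as those of the library, and neither was checked. Chromosome 7 as a whole was not low, with 5.73 guides per gene over 1742 genes that are not in the families and 5.82 over its 236 olfactory receptor genes.

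Within the Vmn1r block the low guide numbers covered only its first stretch. The widest gap between neighbours, 0.633 Mb, splits the block, and the split was chosen after the values were seen. From 20101158 to 22872147 there were 26 genes, of which 20 had 1 to 3 guides, 3 had 4 and 3 had 6. From 23504642 to 24055691 there were 16 genes, of which 15 had 6 guides and 1 had 4.

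RefSeq lists more receptors in these places than the table names. It holds 230 protein-coding Vmn1r and 123 protein-coding Vmn2r genes, of which 185 and 117 matched a member. Of the 51 others, 50 lie on chromosome 7. Of the same 51, 11 have entries under an older predicted-gene name, such as Gm4175 and Gm8693 with 1 guide each. The remaining 40 had no entry by symbol or synonym among the rows analysed here. In the first stretch of the Vmn1r block RefSeq lists 70 Vmn1r genes, with 26 members, 10 entries under older names and 34 without an entry. In the second stretch all 16 had one. In the authors' deposited table the 11 entries under older names had 1 to 5 guides (mean 3.09) and log2 fold changes from -0.31 to 1.71. Of these values 10 were above 0, where 48.0% of all genes were. An unadjusted p under 0.05 was held by 2 of the 11 for positive and 0 for negative change, beside 5.02% and 5.07% of all genes.

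Likeness between receptors was measured on RefSeq's window of 250 bases before to 50 after each gene's start, available for 160 Vmn1r and 110 Vmn2r genes, as the identity to the nearest other RefSeq gene of the same family. The window opens its last 50 bases with ATG in 137 of the Vmn1r and 95 of the Vmn2r genes. Among Vmn1r genes with 1 to 3 guides, the median identity was 99.7% (21 genes), and 17 of them had a relative at 99% or more. Among those with 6 guides the median was 74.3% (104 genes), and 3 reached 99%. For Vmn2r the medians were 99.7% at 1 to 3 guides (11 genes) and 89.0% at 6 guides (70 genes). At 1 guide alone they were 99.7% over 7 Vmn1r genes and 84.7% over 3 Vmn2r genes. The Spearman correlation of identity with guide number was -0.37 across Vmn1r and -0.34 across Vmn2r genes. Outside the 2 chromosome 7 blocks it was -0.068 and -0.18. Inside them it was -0.72 over 39 Vmn1r genes and -0.16 over 18 Vmn2r genes, so in Vmn2r it was no stronger inside the block than outside. These correlations describe genes that share a library and, in part, a recent ancestor.

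A second measure of likeness counted candidate Cas9 target sites, meaning 20 bases followed by NGG on either strand, that occur identically in the window of another gene. Every RefSeq window holds such sites, and 12.3% of them over 27025 genes occur in more than 1 gene. In Vmn1r genes with 1 to 3 guides 88.4% of 448 sites were shared, and in those with 6 guides 18.5% of 1977. In Vmn2r genes the shares were 85.9% of 311 and 35.9% of 1435. The first stretch of the Vmn1r block had 94.2% of 514 sites shared and the second 33.2% of 295. The windows cover the start of a gene only and are not the sites that the library targets.

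The site held by most members of each family shows how far a sequence of guide length repeats. It is printed with the NGG in capitals.
Vmn1r100: cacttcctcagtggttttcaCGG
Vmn2r30: aaagtatttaagtttcttccAGG
The first lies on chr7:20417961-20417983 (minus strand), at the start of the coding sequence of Vmn1r100. It occurs in the windows of 15 members, all in the chromosome 7 block and with 2.47 guides on average, and of 39 genes in all. The second lies on chr7:7337642-7337664 (minus strand), upstream of the start of Vmn2r30. It occurs in 13 members, all in the Vmn2r block and with 2.77 guides on average, and in 17 genes in all.

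In guide abundance the medians of the 2 families lay close to that of all genes. The median log2 fold change was 0.034 for Vmn1r (quartiles -0.30 and 0.27) and 0.030 for Vmn2r (quartiles -0.37 and 0.36), against -0.021 for all genes (quartiles -0.33 and 0.26). It was 0.019 for the 998 single non-targeting guides and 0.031 for the olfactory receptor genes. A value above 0 was held by 99 of 185 Vmn1r genes, 61 of 118 Vmn2r genes and 48.0% of all genes. The exact binomial 95% interval of the median ran from -0.037 to 0.077 for Vmn1r and from -0.10 to 0.14 for Vmn2r, treating genes as independent. Genes are not replicates and many members are near copies, so these intervals test no difference. They place the median across genes and are not the spread of gene values, which the quartiles give. The median of the 15 Taar genes was -0.38 and that of the 35 Tas2r genes 0.072.

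Shares of guides moving in either direction were also close to those of all genes. A guide is counted as up or down where it passes the authors' loose guide threshold, which 37.4% of guides over all genes pass upward and 38.0% downward. Of the 960 Vmn1r guides, 37.5% were up (exact 95% interval 34.4 to 40.6) and 37.1% down (34.0 to 40.2). Of the 613 Vmn2r guides, 37.7% were up (33.8 to 41.7) and 37.4% down (33.5 to 41.3). These intervals cover counting error only and treat guides as independent, so they test no difference from all genes. Guides of the same gene seldom went the same way. Among genes with 6 guides, at least 1 guide was up and at least 1 down in 103 of 117 Vmn1r genes, in 69 of 75 Vmn2r genes and in 88.2% of all genes. Of the Vmn1r genes with 6 guides, 4 had 5 or more up and 3 had 5 or more down, and of the Vmn2r genes 1 and 1, where all genes had 2.91% and 3.29%.

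The spread of gene values was widest at 1 guide in both families. The SD of the log2 fold change was 0.456 over the 117 Vmn1r genes with 6 guides and 0.509 over the 75 Vmn2r genes with 6, against 0.456 over all genes with 6 guides. At 1 guide it was 1.26 over 8 Vmn1r genes and 1.46 over 5 Vmn2r genes, against 1.11 over 94 genes and 0.770 over non-targeting guides. At 2, 3, 4 and 5 guides it was 0.436, 0.527, 0.305 and 0.377 for Vmn1r and 0.669, 0.161, 0.381 and 0.513 for Vmn2r, over 3 to 37 genes each, so from 2 guides upward it did not fall steadily with guide number in either family. The highest value of each family, and the lowest of Vmn1r, belonged to genes with 1 guide. The authors' deposited table put Vmn2r49, on chromosome 7 from 9976245 to 9992139, at 2.56 on the log2 scale (positive p = 0.0062), the second highest of all 20380 genes and the fourth among 1112 entries with 1 guide. The same authors' deposited table gave Vmn1r116 (chromosome 7 from 20872256 to 20873179) 2.13 and Vmn1r62, singled out after its values were seen, -2.25. Vmn1r62 is the only 1-guide member outside the 2 low blocks, and its window is 51.0% identical to that of its nearest relative. Other 1-guide values in the authors' deposited table were 0.013 for Vmn1r122, -0.89 for Vmn1r129, -0.95 for Vmn2r37 and -0.088 for Vmn2r42. Vmn2r46 was at a linear ratio of 0.499 by the authors' deposited table. All 28 candidate sites in the window of Vmn2r49 recur in other genes, as do 18 of 22 in that of Vmn1r116, and a 1-guide value has no second guide to set beside it.

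An unadjusted p under 0.05 for positive change was held by 6 of 185 Vmn1r genes (3.24%) and 5 of 118 Vmn2r genes (4.24%), where 5.02% of all genes passed. For negative change it was held by 6 Vmn1r genes (3.24%) and 3 Vmn2r genes (2.54%), where 5.07% of all genes passed. At an unadjusted p under 0.01, 2 Vmn2r genes and no Vmn1r gene passed for positive change, where 1.07% of all genes passed, and no member passed for negative change, where 1.12% did. No member passed a false discovery rate of 0.05 in either direction, which 0 of all genes passed for positive change and 0.00491% for negative. By the authors' deposited table, the members' lowest false discovery rates were 0.889 for positive and 0.886 for negative change. The share behind each count at p under 0.05 was below that of all genes, a difference that rests on small counts and was not tested. These counts leave out the 11 receptor entries under older names, of which 2 had a positive p under 0.05.

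Among Vmn1r genes with 4 or more guides, the highest values belonged to Vmn1r178, Vmn1r49 and Vmn1r34. The authors' deposited table gave Vmn1r178 (chromosome 7 from 23893529 to 23894443) 0.95 on the log2 scale, with 5 of 6 guides up, 1 down and an unadjusted positive p of 0.0234. Vmn1r49, known as V1rb2 and as a receptor for the urinary ketone 2-heptanone, lies on chromosome 6 from 90072086 to 90073018. Its value in the authors' deposited table was 0.89, from 3 guides up and 2 down (p = 0.0302). For Vmn1r34 (chromosome 6 from 66636823 to 66637752) the authors' deposited table also gave 0.89, with 5 of 6 guides up (p = 0.0197). Vmn1r25, on chromosome 6 from 57978394 to 57979302, was the one member with 5 or 6 guides whose guides all went one way, with 6 of 6 up, 0.78 on the log2 scale and a positive p of 0.0128 by the authors' deposited table. Of all 16270 genes with 6 guides, 35 (0.215%) had 6 up and 59 (0.363%) had 6 down. The authors' deposited table gave the 4 Vmn1r genes named here a false discovery rate of 0.963 to 0.985.

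At the low end the authors' deposited table held Vmn1r16 at -1.42, Vmn1r176 at -1.17 and Vmn1r7 at -0.97. It counted 5, 4 and 4 of their 6 guides as down, and the unadjusted negative p-values of the authors' deposited table were 0.037, 0.169 and 0.147. Vmn1r16 and Vmn1r7 lie on chromosome 6 in the block from 56923914 to 58472878, which also holds Vmn1r25. That block of 28 genes held both the lowest Vmn1r value at 4 or more guides and the gene with all guides up, and its median was 0.066. P-values and fold changes did not always rank genes alike. For Vmn1r181, named after its values were seen, the authors' deposited table gave -0.028 on the log2 scale, 1 of 4 guides down and a negative p of 0.0299.

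Among Vmn2r genes with 4 or more guides, Vmn2r111 had the highest value. It lies on chromosome 17 from 22547941 to 22573273, and the authors' deposited table put it at 1.29 on the log2 scale and at rank 64 for positive change, from 5 of 6 guides up and 1 down. The authors' deposited table gave an unadjusted positive p of 0.00271, the lowest of any member, and a false discovery rate of 0.889. Its window is 98.3% identical to that of its neighbour Vmn2r112, and 22 of its 31 candidate sites recur in other genes, and the guides' own sites were not analysed here. Vmn2r75 (1.27, 3 of 5 guides up) and Vmn2r59 (1.14, 4 of 6 guides up), both on chromosome 7, followed, and the authors' deposited table gave them positive p-values of 0.0576 and 0.0314.

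Lowest in the authors' deposited table were Vmn2r1 at -1.29, Vmn2r27 at -1.25 and Vmn2r6 at -1.09. Each had 4 of 6 guides down, with 1, 1 and 2 up, and the authors' deposited table gave negative p-values of 0.0575, 0.242 and 0.0582. Vmn2r1 and Vmn2r6 belong to the small subfamily C of V2R receptors, whose members are expressed together with other V2Rs in the same neurons and which lies on chromosome 3 from 64078172 to 64719602. The 5 other genes of that block were at 0.12 for Vmn2r2, 0.071 for Vmn2r3, 0.093 for Vmn2r4, -0.48 for Vmn2r5 and 0.37 for Vmn2r7 in the authors' deposited table. The block's median was 0.071, so its members did not share a direction. Vmn2r6 and Vmn2r7, whose windows are 99.3% identical, had values of opposite sign.

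Directions were mixed within blocks too. Among blocks of 4 or more genes, the lowest median of Vmn1r was -0.44, over 8 genes on chromosome 6 from 66552183 to 66805332. These 8 genes ranged from -0.93 to 0.89, with 21 of 43 guides down and 16 up. The 15 genes of the V1ra and V1rb receptors on chromosome 6 from 89711261 to 90270053 had a median of 0.077 and 10 values above 0. The lowest Vmn2r median among blocks of that size was -0.32, over 9 genes on chromosome 6 from 123308333 to 124231784, with 24 of 47 guides down. The highest was 0.19, over 10 genes on chromosome 5 from 108797193 to 109453387, with 9 values above 0 and 23 of 59 guides up. The 2 blocks of low guide number had medians of 0.074 for Vmn1r and -0.0040 for Vmn2r. These are descriptions of 1 comparison, with no test between blocks.

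Values of receptors with near-identical windows were set beside each other. In 13 pairs of Vmn1r members whose windows were at least 99% identical, the median absolute difference in log2 fold change was 0.35 (range 0.021 to 1.19), and 6 pairs had the same sign. Over all 12720 Vmn1r pairs the median difference was 0.43. In the 6 such Vmn2r pairs it was 0.96 (range 0.18 to 2.58), with 2 of the same sign, against 0.48 over 5995 pairs. The near-identical pairs hold genes with fewer guides, 2.88 on average over 17 Vmn1r genes and 3.67 over 12 Vmn2r genes, where all genes with a window had 5.22 and 5.25. The compared pairs thus differ in guide number as well as in likeness, a gene can be in several pairs, and these are descriptions.

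Some receptors with known ligands are named here for their role, outside the naming rule and with their values known. For Vmn2r116, the receptor of the male tear peptide Esp1, the authors' deposited table gave -0.13 on the log2 scale with 3 guides up and 3 down, and for Esp1 itself 0.55 with 3 up and 2 down. Vmn1r85 and Vmn1r89, which respond to sulphated steroids, had 0.15 and -0.23 in the authors' deposited table. Vmn2r26, a V2R that responds to peptide ligands of MHC molecules, had 0.65 with 4 of 5 guides up (positive p = 0.061) in the authors' deposited table. None of these had an unadjusted p under 0.05 in either direction.

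Of 71 genes listed for other roles in the vomeronasal system, 68 had an entry. Their median log2 fold change was 0.17, with 42 of 68 above 0, against -0.021 and 48.0% for all genes. An unadjusted p under 0.05 was held by 4 for positive and 5 for negative change among the 68, beside 5.02% and 5.07% of all genes, and none passed a false discovery rate of 0.05. The channel Trpc2 was at 0.0073 and the G proteins Gnai2 and Gnao1 at -0.41 and -0.047 in the authors' deposited table, none with a p under 0.05. Among ligands, Mup20, the male urinary protein darcin, had the highest value of the list, 1.88, with 3 of 5 guides up (positive p = 0.0159) in the authors' deposited table. Esp4 was at 0.37 (positive p = 0.0424) and Esp3 at -1.30, with 5 of 6 guides down (negative p = 0.0327), in the authors' deposited table.

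B2m, the light chain that accompanies the H2-M10 molecules of V2R neurons, was at 0.77 with a positive p of 0.0433 in the authors' deposited table, and H2-M10.5 at 0.062 with a negative p of 0.0316. The axon guidance ligand Slit1 was at 0.70 with 5 of 6 guides up (positive p = 0.0224) in the authors' deposited table. Omp, the olfactory marker protein of mature sensory neurons, was at -1.56 with 4 of 4 guides down and a negative p of 0.00217 in the authors' deposited table, the lowest p of the list, at a false discovery rate of 0.810. Gnb1, a G protein beta subunit used in many cell types, was at -0.73 with 4 of 6 guides down (negative p = 0.00561), and the transcription factor Lhx2 at -0.97 with 5 of 6 down (negative p = 0.0273), in the authors' deposited table.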

How the data were processed

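The authors deposited 1 table of 22510 entries (20380 genes, 1132 microRNAs and 998 non-targeting guides) whose columns, per the file headers, are those of a gene summary by MAGeCK. The submitters' processing notes name MAGeCK and mm10. Its version, settings and normalization were not given in the sources used here. Per the file headers, the deposited values are counts of guides per entry and of guides past a threshold, a score from 0 to 1, a rank, p-values with false discovery rates, and a log2 fold change, identical in its 2 columns. The headers name no groups, and the comparison is read as MERVL-positive against total cells. No count model could be fitted. The labels name the 4 libraries as sequencing repeats, so the p-values may measure technical spread only.

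Members were matched to RefSeq (GRCm38.p6), 301 by symbol, 1 by synonym and 1 (Vmn2r123) not at all. The 3 members with starts below 3 Mb (Vmn1r186, Vmn1r187 and Vmn2r122) entered no block. Identities came from edit distances over the first 300-base window listed per gene (edlib 1.3.9.post1, Python 3.11.15), tested on simulated data. The rule for named genes took each family's members with an unadjusted p under 0.01, the 3 highest and 3 lowest log2 fold changes among genes with 4 or more guides, the 3 with fewest guides, and genes with 5 or 6 guides all past the threshold one way. From the vomeronasal list it took genes with p under 0.05 and Trpc2, Gnai2, Gnao1 and B2m. Members and lists were chosen with earlier results of these data known.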

Additional observations from a re-analysis of the deposited data

How the results depend on the processing

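No paired analysis was possible because the table holds 1 comparison per gene and no value per library, and for the same reason no library could be left out. At an unadjusted p under 0.01 the counts were 0 and 0 for Vmn1r (positive and negative) and 2 and 0 for Vmn2r, and at a false discovery rate of 0.05 all 4 were 0, where the deposited p-values under 0.05 gave 6, 6, 5 and 3. Among the 117 Vmn1r genes with 6 guides, 4 had a positive and 3 a negative p under 0.05, and among the 75 Vmn2r genes 3 and 1. Of all 16270 genes with 6 guides, 820 had a positive and 841 a negative one. Without the chromosome 7 blocks, an alternative chosen after seeing the data, 1 of 98 Vmn2r genes had a negative p under 0.05, where 5.07% of all genes did. Of those 98 genes, 24.5% had fewer than 6 guides, where 20.2% of all genes did. With a limit of fewer than 5 guides the shares were 16.8% for Vmn1r and 20.3% for Vmn2r. Of all genes, 1.75% had 1 to 3 guides and 2.19% had 4. The median log2 fold changes stayed within their binomial intervals under all 7 alternatives tried for each family, but their sign turned with the mean in place of the median (-0.019 and -0.016) and, for Vmn2r, among members with 6 guides (-0.019).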
